A study of Rattus norvegicus with 16 samples.

Results

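The 8 genes described here move glutamate across membranes or turn it into glutamine and other products. They are the plasma membrane transporters Slc1a1, Slc1a2 and Slc1a3, the vesicular transporters Slc17a6, Slc17a7 and Slc17a8, and the enzymes Glul (glutamine synthetase) and Glud1 (glutamate dehydrogenase). The members were chosen by name, as the probes whose gene name in the scanner files is 1 of these 8. This gave 8 of 35190 gene names and 14 of 41012 probes for transcripts. Of the 8 genes, 7 passed the filter on dim probes and were tested among 22925 genes, and Slc17a8 did not pass it.

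RNA came from primary cultures of hippocampal neurons, prepared from Sprague-Dawley rats at embryonic day 18 to 19. The study asked about PRR7, a synaptic adaptor protein. Its 4 groups held 4 samples each, which the study design calls biological replicates. Not transduced cultures received no virus, nontargeting cultures a lentivirus with an shRNA that has no target, knockdown cultures a lentivirus (pTRIP vector) with shRNA against PRR7, and overexpression cultures a lentivirus (FUGW vector) carrying PRR7. The labels give 1 target sequence for the knockdown and name no control virus for the overexpression. Whether the replicates came from separate dissections is not given in the sources used here.

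Each of the 8 two-colour Agilent arrays carried 2 samples of the same group. Knockdown and nontargeting arrays shared a slide, and overexpression and not transduced arrays shared the other slide. These pairs of groups were compared within a slide, while in all other pairs slide and group cannot be told apart. The share of probes well above background was 49.2% to 69.6% in a sample, and the median net signal of a sample 73.2 to 150 intensity units. Nontargeting replicates 1 and 3 had the lowest such signal of the Cy3 samples, at 73.2 and 80.2. The next was not transduced replicate 1, at 91.4. Of the Cy5 samples, nontargeting replicate 4 was lowest, at 105.95. Nontargeting replicate 2, at 132.9, lay above overexpression replicate 2, at 112.4. The part of this weaker raw signal in the results was not tested. Precision is limited by the number of arrays. The array has no probe with the name Prr7, so the labels were not checked on the targeted gene. Of the neuronal markers listed for this work, 11 of 12 were tested. Astrocyte markers such as Gfap, Aqp4 and Gja1 were well above background in all 16 samples, so the cultures held RNA of glial as well as neuronal genes. Of the same list, Sox9 was well above background in 8 samples and Gjb6 in 6, and Hepacam had no probe. Of the 12 microglial markers listed, Csf1r, C1qb, Cd68 and Tyrobp were well above background in all 16 samples, C1qa and C1qc in 9, P2ry12 in 6, Ptprc in 4, and Aif1, Cx3cr1, Itgam and Tmem119 in none.

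Glutamate released at synapses is cleared by sodium-driven transporters in the plasma membrane. Astrocytes take up most of it through Slc1a2 (GLT-1) and Slc1a3 (GLAST) and convert it to glutamine with Glul, while neurons carry Slc1a1 (EAAC1), which also brings in cysteine for glutathione. Glutamine returns to neurons, where it is turned back into glutamate and the vesicular transporters load it into synaptic vesicles. Glud1 feeds glutamate into the citric acid cycle.

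The results turn on a few probes, whose first 30 of 60 bases are given here as they stand in the array annotation, so that the measured stretch of each transcript can be found. Slc1a1 is read by 1 probe, at chr1:232551013-232551072 (rn4, plus strand). Slc1a3 is read by 2 probes that do not overlap, at chr2:58270419-58270478 and chr2:58270881-58270940 (minus strand), and Glul by 2 probes that the annotation places in the transcript but not on the genome. Slc1a2 is read by 2 probes, at chr3:87988361-87988420 and chr3:87993033-87993092 (plus strand), annotated to different transcript records and different in behaviour. Slc17a6 is read by 1 probe, at chr1:101465828-101465887 (plus strand). No gene model of that build was used here, so exon and untranslated region are not named.
Slc1a1, A_44_P251706: tcctgtaaataaaacccaacaaaaactcgt
Slc1a3, A_42_P533183: aggttaacctatgtggcagtcgttttgcga
Slc1a3, A_44_P167719: caaaaccacatactcctttgtacagagatg
Glul, A_44_P381069: ttaaattttttaaagcaaaacaagtttaga
Glul, A_44_P458704: atatatgggtgtgtggatatatatgtcttt
Slc1a2, A_44_P545654: aaagcaactctaatcagtgtgtctatgccg
Slc1a2, A_44_P226231: acctgaattttagccagaattaaatattcc
Slc17a6, A_42_P511118: gccctgctactgcgaatataaaacgtgaag

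Across the 4 groups, nontargeting cultures stood lowest for Slc1a1, Slc1a3 and Glul, and knockdown cultures stood highest for Slc1a2 and Slc17a6. Here and below, overlap of samples between groups was looked at for the members only. The share of all genes whose groups do not overlap was not counted, so separation is a description and not a result about the members. In knockdown against nontargeting, the comparison within a slide that asked what lowering PRR7 does, Slc1a1, Glul, Slc1a3 and Slc1a2 rose and no member fell. That is 4 of 7 members tested, where 21.5% of all 22925 genes passed the limma test, 10.5% of all genes being higher and 11% lower. The median log2 difference of the 7 members was 0.59, and that of all genes was -0.02. Overexpression against not transduced, the other comparison within a slide, called none of the 7, where 0.00436% of all genes passed.

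**Figure D1:**
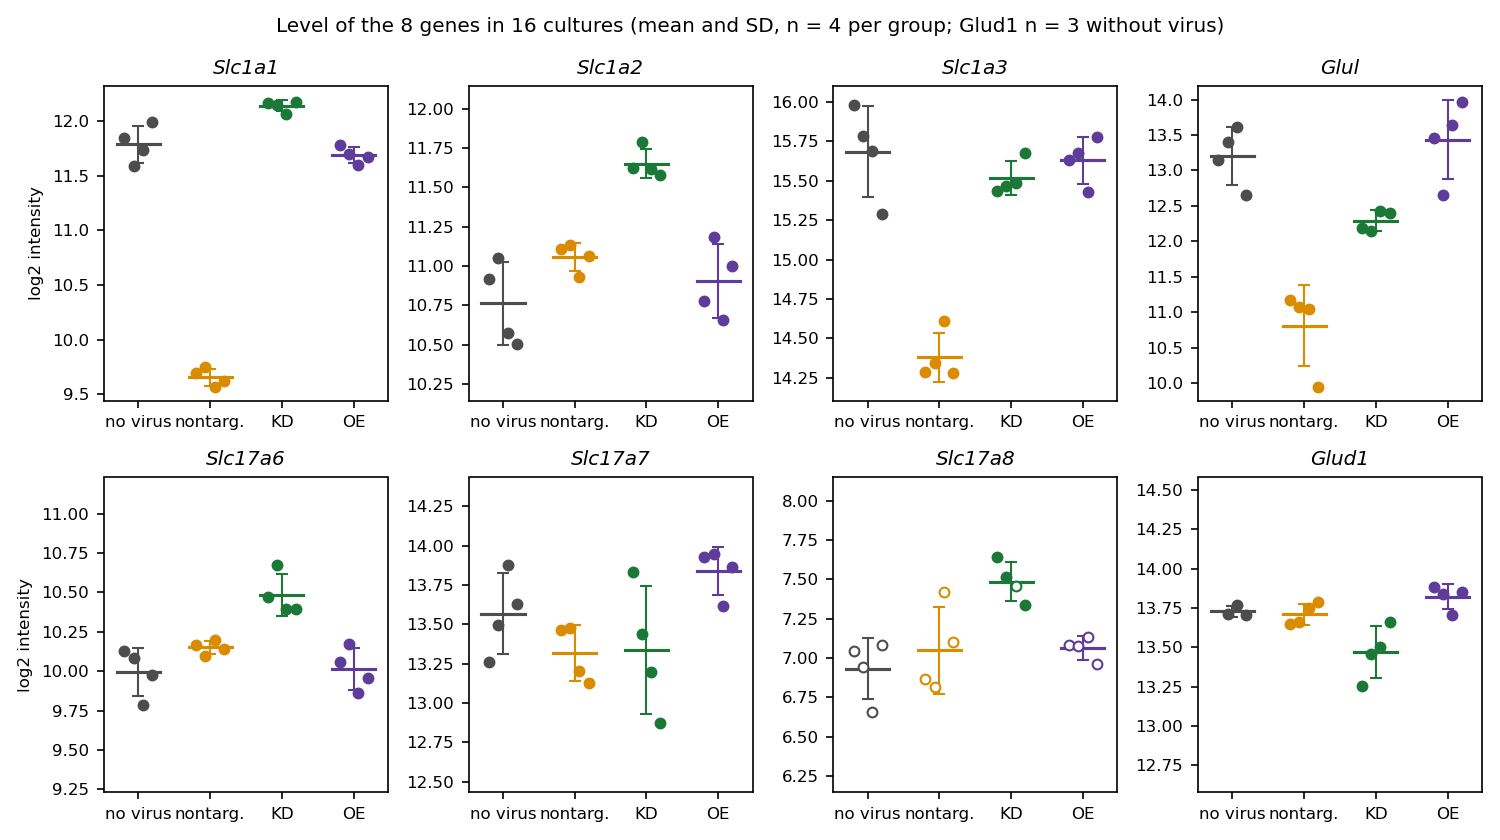
Log2 intensity of the probe that stands for each gene in each of the 16 samples, by group (no virus, nontargeting shRNA, KD for PRR7 knockdown, OE for PRR7 overexpression), with the mean as a line and the SD as a bar; open points are samples in which the probe was not well above background, and each panel has its own axis range. Nontargeting samples lie below all others for Slc1a1, Slc1a3 and Glul, and knockdown samples lie above all others for Slc1a2 and Slc17a6. How many of all genes separate in this way was not counted.

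Slc1a1, the neuronal uptake transporter, had the largest difference of the members between knockdown and nontargeting cultures. Its log2 intensity was 12.17, 12.15, 12.06 and 12.17 in the knockdown samples and 9.69, 9.75, 9.57 and 9.62 in the nontargeting samples. It was 11.85, 11.59, 11.73 and 11.99 in the not transduced samples and 11.78, 11.69, 11.60 and 11.67 in the overexpression samples. All 4 nontargeting samples lay below every other sample by a wide gap, and all 4 knockdown samples lay above every other sample. Knockdown exceeded nontargeting 5.58-fold (log2 difference 2.48 ± 0.13 SE, limma adjusted p = 3.94e-08).

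Nontargeting lay 4.38-fold below not transduced for Slc1a1 (-2.13 ± 0.13, limma adjusted p = 1.11e-07) and 4.08-fold below overexpression (adjusted p = 1.93e-07). The order was knockdown (12.14 ± 0.05 SD, n = 4), not transduced (11.79 ± 0.17), overexpression (11.69 ± 0.07) and nontargeting (9.66 ± 0.08). Its first 3 places are close: knockdown and not transduced differed by 0.35 (limma adjusted p = 0.102, or 0.0499 with the replicate number as a block and 0.044 without not transduced replicate 4). Knockdown lay 1.37-fold above overexpression (adjusted p = 0.0369). That call was lost in 15 of 36 alternatives, with adjusted p up to 0.356, among them each fit without a knockdown or overexpression array (0.112 to 0.212) and those without 1 of 8 single samples: nontargeting replicates 2 and 4, knockdown replicates 1, 2 and 4 and overexpression replicates 2, 3 and 4 (0.0523 to 0.0656). The probe is printed 10 times on each array, and the SD of its spots within a sample had a median of 0.33 on the log2 scale, wider than the spread between the means of the samples of a group.

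Markers of neurons were set beside Slc1a1. The summed level of the 8 excitatory neuron markers with a value in every sample was 15.09 to 15.29 (log2) in nontargeting samples, below 15.45 to 15.82 without virus, 15.58 to 15.77 in knockdown and, by a narrow margin, 15.29 to 15.71 with overexpression. Of 11 such markers tested, 3 rose and none fell in knockdown against nontargeting, where 10.5% of all genes were higher and 11% lower. In nontargeting against not transduced 4 rose and 3 fell, where 11.5% of all genes were higher and 10.9% lower. The sum of the 7 pan-neuronal markers with a value in every sample ran the other way. It was 17.16 to 17.36 in nontargeting samples, 16.88 to 17.02 without virus, 17.02 to 17.12 in knockdown and 16.77 to 16.88 with overexpression. That sum leaves out the other tested pan-neuronal markers, and its direction depends on which markers it holds. Mean levels of Map2, Snap25, Nefl, Nefm, Elavl3 and Elavl4 were higher in nontargeting than in not transduced cultures. Those of Tubb3, Stmn2, Syt1, Syn1 and Eno2 were lower. Among the brightest, Snap25 had 15.86 against 15.47, Tubb3 14.82 against 15.67 and Stmn2 15.91 against 16.35. Of the 11 tested, none rose and 2 fell in nontargeting against not transduced, at a median of 0.03. In knockdown against nontargeting 1 rose and 1 fell, at a median of -0.10. The shares of all genes given above stand beside these counts too. The summed level of interneuron markers, given with Gad1 and Gad2, was low in nontargeting and in knockdown samples alike. The part of these neuronal markers in the Slc1a1 result was not tested.

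Slc1a3, the glial transporter GLAST, was lower in nontargeting cultures than in each of the other groups. Log2 intensities were 14.28, 14.34, 14.61 and 14.28 in nontargeting samples and 15.44, 15.47, 15.48 and 15.68 in knockdown samples. They were 15.98, 15.78, 15.69 and 15.29 without virus and 15.63, 15.67, 15.43 and 15.78 with overexpression. No nontargeting sample reached any other sample, while the other 3 groups overlapped each other.

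Knockdown exceeded nontargeting 2.20-fold for Slc1a3 (1.14 ± 0.20 SE, limma adjusted p = 0.00084), and nontargeting lay 2.47-fold below not transduced (-1.31 ± 0.20, adjusted p = 0.000315) and 2.38-fold below overexpression (adjusted p = 0.000467). The means were 15.69 ± 0.29 (SD, n = 4) without virus, 15.63 ± 0.15 with overexpression, 15.52 ± 0.11 with knockdown and 14.38 ± 0.16 with the nontargeting virus. Neighbours among the first 3 did not differ beyond their spread, with 95% intervals of -0.48 to 0.37 for overexpression against not transduced and -0.54 to 0.32 for knockdown against overexpression. The second probe gave log2 differences of 1.17 for knockdown against nontargeting and -1.31 for nontargeting against not transduced, both past the test over all probes (adjusted p = 0.0127 and 0.00663).

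Glul makes glutamine from glutamate and ammonia in astrocytes, and its groups spread more widely. Its log2 intensity was 11.17, 11.08, 11.04 and 9.95 in nontargeting samples and 12.19, 12.15, 12.43 and 12.41 in knockdown samples. Without virus it was 13.14, 13.41, 13.61 and 12.66, and with overexpression 13.46, 12.66, 13.64 and 13.97. Nontargeting samples lay lowest, knockdown samples lay between, and the overexpression and not transduced samples overlapped above both.

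Knockdown exceeded nontargeting 2.80-fold for Glul (1.49 ± 0.42 SE, limma adjusted p = 0.0186), and nontargeting lay 5.27-fold below not transduced (-2.40 ± 0.42, adjusted p = 0.000833) and 6.16-fold below overexpression (adjusted p = 0.000435). The means were 13.43 ± 0.56 (SD, n = 4) with overexpression, 13.21 ± 0.41 without virus, 12.29 ± 0.15 with knockdown and 10.81 ± 0.58 with the nontargeting virus. Knockdown lay 0.91 below not transduced without passing the test (adjusted p = 0.189), although the samples did not overlap, and overexpression and not transduced differed by 0.23 (95% interval -0.66 to 1.12). The second probe, with 3 values each in the not transduced and overexpression groups, gave 1.60 for knockdown against nontargeting (adjusted p = 0.0222) and -2.42 for nontargeting against not transduced (adjusted p = 0.00218).

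**Figure D2:**
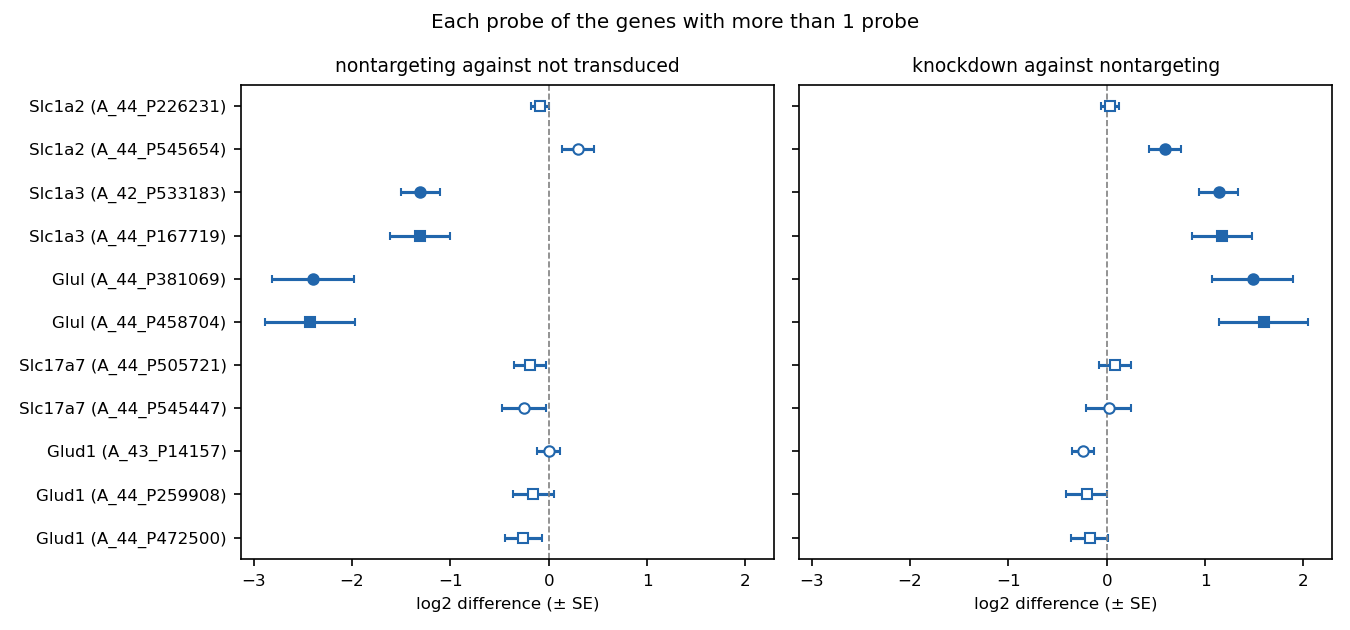
Log2 difference with its SE for each probe of the 5 genes that have more than 1 probe, in nontargeting against not transduced and in knockdown against nontargeting; circles are the probe that stands for the gene, squares the others, and filled symbols passed the test. Both probes of Slc1a3 and both of Glul lie on the same side, while only 1 of the 2 Slc1a2 probes departs from 0 in knockdown.

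Slc1a3 and Glul are also used as astrocyte markers, so the other genes on the astrocyte list were set beside them. In nontargeting against not transduced, 2 of 17 tested astrocyte markers fell, S100b (-1.41) and Fgfr3 (-0.63), and none rose. The 2 that fell are a share near the 10.9% of all genes that were lower there, and 11.5% were higher. The median of the 17 was -0.03 and that of all genes 0.03. The summed level of the 11 astrocyte markers with a value in every sample was 15.69 to 16.36 (log2) without virus and 15.84 to 16.23 with the nontargeting virus, so the ranges overlapped. The sum was taken over unlogged values, so the brightest markers weigh most in it.

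In knockdown against nontargeting, S100b rose (1.13) and Gfap fell (-1.57), where 10.5% of all genes were higher and 11% lower. The summed astrocyte level was 15.58 to 15.93 in knockdown samples. With overexpression it was 16.21 to 16.52. In overexpression against nontargeting, 4 of the 17 markers rose and none fell, where 10.5% of all genes were higher. Their median was 0.27 and that of all genes -0.03. The part of cell composition in these results was not tested beyond these values. In such bulk cultures, fewer cells of a type and less RNA per cell cannot be told apart.

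**Figure D3:**
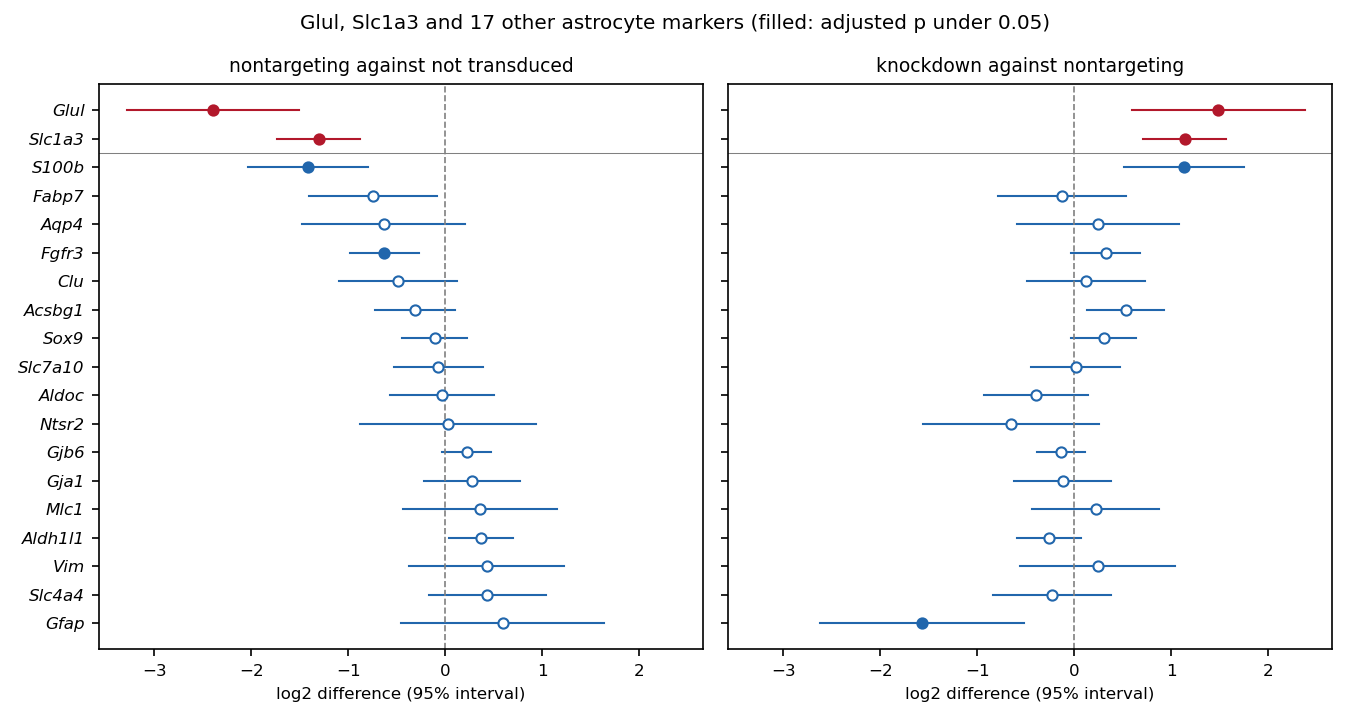
Log2 difference with its 95% interval for Glul and Slc1a3 (above the line) and the 17 other astrocyte markers tested, in nontargeting against not transduced and in knockdown against nontargeting; filled symbols passed the limma test at an adjusted p under 0.05. The 17 markers lie on both sides of 0, some well away from it without passing. S100b is the only one of them that passed in both comparisons, at -1.41 and 1.13.

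Slc1a2, the glial transporter GLT-1, had another order, with knockdown cultures above the other 3 groups. Log2 intensities of the brighter probe were 11.62, 11.79, 11.62 and 11.58 in knockdown samples and 11.11, 11.13, 10.93 and 11.06 in nontargeting samples. They were 10.92, 11.05, 10.58 and 10.51 without virus and 10.78, 11.18, 10.65 and 11.00 with overexpression. No knockdown sample overlapped any other sample, and the remaining groups overlapped each other.

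Knockdown exceeded nontargeting 1.51-fold for Slc1a2 (0.59 ± 0.16 SE, limma adjusted p = 0.0155), not transduced 1.85-fold (0.89 ± 0.16, adjusted p = 0.0028) and overexpression 1.68-fold (0.75 ± 0.16, adjusted p = 0.00819). The order was knockdown (11.65 ± 0.09 SD, n = 4), nontargeting (11.06 ± 0.09), overexpression (10.90 ± 0.24) and not transduced (10.76 ± 0.26), and the last 3 did not differ beyond their spread. Nontargeting against not transduced gave 0.30 (95% interval -0.05 to 0.64), the side opposite to Slc1a3 and Glul, without passing the test. The second Slc1a2 probe lay between 7.07 and 7.33 in all samples, was well above background in 7 of the 8 Cy5 samples and in no Cy3 sample, and passed the test in no comparison.

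The calls of knockdown against nontargeting differed in firmness. Slc1a1 passed under all 36 alternatives, with an adjusted p from 1.66e-10 to 0.000543, and Slc1a3 under 35, ending at 0.0876 when samples were scaled to their 75th percentile. Slc1a2 and Glul each lost the call in 4, with adjusted p up to 0.2 and 0.135: under that scaling, and when the array of nontargeting replicates 3 and 4 or either knockdown array was left out (0.0504 to 0.116 for Slc1a2 and 0.0592 to 0.12 for Glul). Against overexpression, Slc1a2 lost the call in 3 of 36, under that scaling (0.211) and without the array of knockdown replicates 1 and 2 (0.0833) or of overexpression replicates 3 and 4 (0.0719).

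The vesicular transporters changed less. Slc17a6 (VGLUT2), which fills vesicles of many subcortical and immature neurons, had log2 intensities of 10.47, 10.67, 10.40 and 10.39 in knockdown samples and 10.17, 10.10, 10.20 and 10.14 in nontargeting samples. It had 10.13, 10.08, 9.79 and 9.98 without virus and 10.06, 10.17, 9.86 and 9.96 with overexpression. All knockdown samples lay above all others, and the remaining groups overlapped. Knockdown against nontargeting gave 0.33 ± 0.12 SE, which missed the test (limma adjusted p = 0.0661) and passed it in 4 of 36 alternatives, among them with the replicate number as a block (0.0415) and without nontargeting replicate 3 (0.0483).

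Against not transduced, knockdown was 1.41-fold higher for Slc17a6 (0.49, limma adjusted p = 0.0186), and against overexpression 1.39-fold (0.47, adjusted p = 0.0229). The order was knockdown (10.48 ± 0.13 SD, n = 4), nontargeting (10.15 ± 0.04), overexpression (10.01 ± 0.13) and not transduced (9.99 ± 0.15), with no difference past the test between the last 3. The first call was lost in 4 of 36 alternatives and the second in 6, with adjusted p up to 0.157 and 0.319. Among these were fits without the array of knockdown replicates 1 and 2 (0.157 and 0.182), without that of not transduced replicates 3 and 4 (0.126 for the first), and, for the second, without the array of knockdown replicates 3 and 4 (0.0552) or either overexpression array (0.0501 and 0.21). Its probe is also printed 10 times, with a median spot SD of 0.30 within a sample.

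Slc17a7 (VGLUT1), the main vesicular transporter of mature cortical and hippocampal excitatory neurons, passed the test in no comparison. Its samples ran from 12.87 to 13.83 in knockdown, 13.13 to 13.48 in nontargeting, 13.26 to 13.88 without virus and 13.62 to 13.95 with overexpression. Groups overlapped, except that all overexpression samples lay above all nontargeting samples, a difference of 0.52 (95% interval 0.04 to 1.01, limma adjusted p = 0.112). Knockdown against nontargeting gave 0.02 (95% interval -0.46 to 0.50). The second probe passed in no comparison either.

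Slc17a8 (VGLUT3), found in small sets of neurons that also release other transmitters, was at the edge of detection. Its probe at chr7:26362333-26362392 (rn4, minus strand) was well above background in 3 of the 4 knockdown samples and in no other sample. Log2 intensities were 7.64, 7.51, 7.46 and 7.34 in knockdown samples, against 6.65 to 7.08 without virus, 6.81 to 7.42 with the nontargeting virus and 6.96 to 7.13 with overexpression. Only 1 nontargeting sample reached the knockdown range.

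Each dim sample was also set at the higher of its own value and the lowest signal well above background in that sample. The knockdown mean was then 1.39-fold higher than not transduced, 1.34-fold higher than overexpression and 1.20-fold higher than nontargeting. For overexpression this is the same as the measured difference. Knockdown replicate 3 was itself not well above background, so these values are not lower limits. Without the filter on dim probes the log2 differences were 0.55, 0.42 and 0.44, with limma adjusted p of 0.054, 0.142 and 0.0966, so none passed.

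Glud1 passed in no comparison on the probe with the highest mean. Its log2 intensities were 13.26, 13.46, 13.50 and 13.66 in knockdown samples, 13.65 to 13.79 in nontargeting samples, 13.71 to 13.77 in the 3 not transduced samples with a value, and 13.71 to 13.89 with overexpression. Knockdown samples lay at the low end, and on all 3 probes no knockdown sample overlapped an overexpression sample. The difference from overexpression was -0.35 (95% interval -0.59 to -0.11) and missed the test (limma adjusted p = 0.0647), and that from nontargeting was -0.24 (adjusted p = 0.157). The not transduced mean rests on 3 samples, since 1 spot was marked as an outlier.

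**Figure D4:**
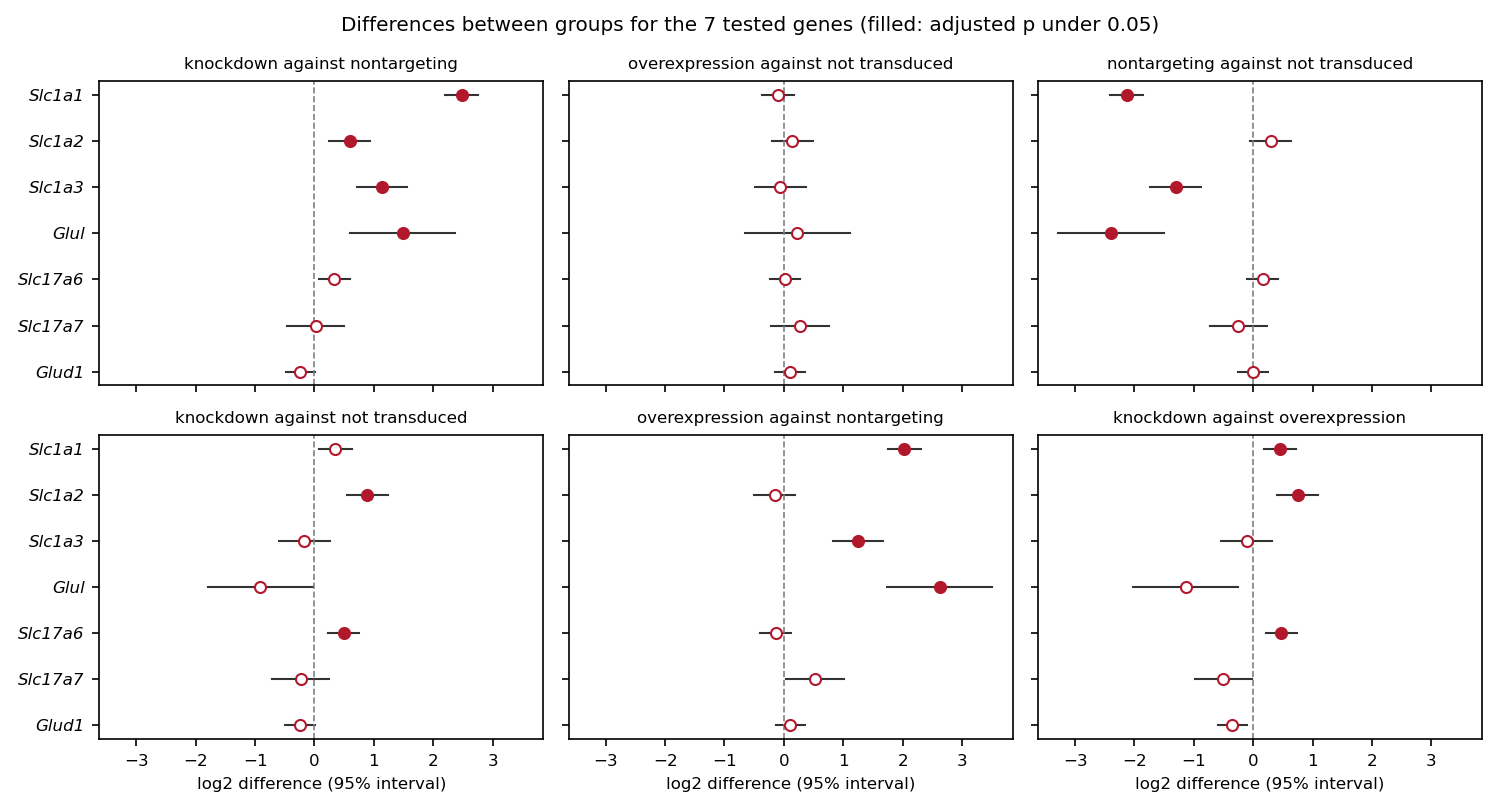
Log2 difference with its 95% interval for the 7 tested genes in the 6 pairwise comparisons of groups; filled points passed the limma test at an adjusted p under 0.05. Knockdown against nontargeting shows 4 filled points, all above 0, and overexpression against not transduced shows none.

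Overexpression against not transduced asked what more PRR7 does, within the other slide. None of the 7 members passed the limma test, and none was under 0.05 before adjustment, the smallest unadjusted p being 0.247. Over all genes 0.00436% passed, which is 1 gene of 22925, and 889 (3.88%) had an unadjusted p under 0.05. Differences ran from -0.10 for Slc1a1 (95% interval -0.38 to 0.17) to 0.27 for Slc17a7 (-0.21 to 0.76), with a member median of 0.11 and a median over all genes of -0.01. The interval of Slc1a1 is narrow beside its change in the knockdown comparison, whereas that of Glul was wide (-0.66 to 1.12).

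The difference between these 2 comparisons, in which slide offsets cancel, passed for Slc1a1 (2.58 ± 0.18 SE, limma adjusted p = 2.36e-06) and Slc1a3 (1.19 ± 0.28, adjusted p = 0.0139), where 9.87% of all genes passed, 5.55% higher and 4.32% lower. On the second Slc1a3 probe it was 1.21 and missed the test (adjusted p = 0.0996), and the Slc1a3 call was lost in 4 of 35 alternatives (0.0541 to 0.344). Among them were the choice of the highest-variance probe (0.106) and the fits without the array of not transduced replicates 1 and 2 (0.0557) or of knockdown replicates 3 and 4 (0.0541). For Glul it was 1.26 (adjusted p = 0.215), for Slc1a2 0.45 (0.255), for Slc17a6 0.31 (0.305), for Slc17a7 -0.25 (0.699) and for Glud1 -0.35 (0.222).

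In the comparisons across slides, 3 of 7 members fell and none rose in nontargeting against not transduced (22.5% of all genes passed, 10.9% lower), namely Glul, Slc1a1 and Slc1a3. The same 3 were higher in overexpression than in nontargeting, where 22.8% of all genes passed, 10.5% higher. In knockdown against not transduced 2 members rose, Slc1a2 and Slc17a6 (10.1% of all genes passed, 4.85% higher and 5.23% lower), and none fell. In knockdown against overexpression 3 rose, Slc1a2, Slc17a6 and Slc1a1 (10.4% passed, 5.77% higher and 4.68% lower). These comparisons share samples, so they are not separate evidence, and in each of them slide and group cannot be told apart.

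The 3 calls of nontargeting against not transduced held in all 36 alternatives. In overexpression against nontargeting, Slc1a3 lost the call in 1 of 36, at 0.0654 with scaling to the 75th percentile, within a range from 5.52e-06 to 0.0654.

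Stretches upstream of the genes are shown for Slc1a3 and Glul, which both stood lowest in nontargeting cultures, and for Slc17a6, and the AP-1 site was searched because c-Jun, a subject of the study, binds it. The 250 bases before the transcript start were taken from RefSeq (build GRCr8), where 7 of the 8 genes were listed, all but Slc1a1. Capitals mark a match to 1 of 4 motifs searched on both strands: the AP-1 site TGANTCA, the cAMP response element TGACGTCA, its first part TGACG, and the antioxidant response element TGACNNNGC, which can overlap the preceding one. The windows lie at chr2:59557809-59558058 (minus strand) for Slc1a3, chr13:68519250-68519499 (plus strand) for Glul and chr1:110348197-110348446 (plus strand) for Slc17a6.
Slc1a3: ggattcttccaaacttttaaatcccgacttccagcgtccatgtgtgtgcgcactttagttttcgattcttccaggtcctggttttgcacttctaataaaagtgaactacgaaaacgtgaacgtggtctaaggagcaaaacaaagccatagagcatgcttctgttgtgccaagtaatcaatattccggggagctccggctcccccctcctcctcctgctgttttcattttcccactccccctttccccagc
Glul: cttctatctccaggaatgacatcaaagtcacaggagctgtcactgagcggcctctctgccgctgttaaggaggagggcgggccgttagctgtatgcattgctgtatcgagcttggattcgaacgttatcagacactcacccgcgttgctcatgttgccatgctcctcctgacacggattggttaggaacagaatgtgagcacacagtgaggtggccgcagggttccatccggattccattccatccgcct
Slc17a6: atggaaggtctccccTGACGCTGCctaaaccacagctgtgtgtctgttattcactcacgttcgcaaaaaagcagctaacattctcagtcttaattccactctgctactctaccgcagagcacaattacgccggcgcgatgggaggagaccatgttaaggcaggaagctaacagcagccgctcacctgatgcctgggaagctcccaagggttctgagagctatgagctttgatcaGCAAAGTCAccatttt

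Neither the Slc1a3 nor the Glul window held any of the 4 motifs. The AP-1 letters stood in 6.36% of the 27457 windows of the table and in 0 of the 7 members, and TGACGTCA in 1.7% and in 0. The shorter TGACG stood in 19% of windows and in 1 member, Slc17a6, where it begins 235 bases before the start and overlaps a TGACNNNGC match. That element stood in 10.2% of windows, again in Slc17a6 alone among the members, with another match on the minus strand 16 bases before the start. Slc1a2 and Glud1 had windows of 71.2% and 78.8% G and C, against a median of 52% over the table and 48% in Slc1a3. A match is only letters in this window, and its absence says nothing about a factor.

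The genes whose pattern over the 16 samples was most like each member were found by the root mean square difference of values centred on each gene's mean, over 20436 genes. For Slc1a1 the 2 nearest were Fabp3, a fatty acid carrier (0.18), and Rab4b, a GTPase of recycling endosomes (0.24), where Slc1a1 itself varies by 0.98. For Glul they were Nxph1 (0.34), Pea15 (0.38) and Ifi27l2b (0.43), at an own variation of 1.10. For Slc1a3 they were Cyp4f1, Rac1 and Arhgap10 (all 0.15, own variation 0.56). Some of these genes have another probe that was less like the member, at 0.42 for Rac1, 0.61 for Arhgap10, 0.30 for Opa1, 0.17 for Ppp1r14c and 1.10 for Ifi27l2b, while that of Nxph1 was as near (0.36).

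The measure is not scaled, and Glul varies more than Slc1a3 (1.10 against 0.56). So neither could stand among the 3 nearest of the other, whatever their patterns. Slc1a2 was nearest to Csrp2 (0.14), Dkk3 (0.16) and Ifngr2 (0.16), at an own variation of 0.37, and Slc17a6 to Opa1 (0.09), Ppp1r14c (0.09) and Sec16a (0.09), at 0.22.

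Of 37 other genes of glutamate and glutamine handling, 35 were tested. In knockdown against nontargeting 5 rose and 3 fell, with a median of 0.04. These 8 of 35 are a share near the 21.5% of all genes that passed there. Those that rose were Gad1 (log2 difference 1.25) and Gad2 (0.83), which make GABA from glutamate, Abat (0.46), which degrades GABA, Aldh18a1 (0.87), the first enzyme from glutamate to proline, and the aspartate and glutamate carrier Slc25a12 (0.55). Those that fell were the mitochondrial glutamate carrier Slc25a22 (-1.40), the neutral amino acid transporter Slc38a2 (-0.78) and Gfpt1 (-0.39), which uses glutamine to make hexosamines. Their limma adjusted p ran from 0.000824 for Slc25a22 to 0.0453 for Gad1.

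Other probes of these genes did not always move alike. The second probes of Slc25a12 (0.16) and Slc38a2 (-0.08) missed the test, as did 1 of the 3 Gad1 probes (0.50). For Slc25a22, samples ran from 11.36 to 12.29 in knockdown, 12.99 to 13.67 in nontargeting, 11.41 to 12.85 without virus and 12.19 to 12.59 with overexpression, so nontargeting samples stood above all others. For Aldh18a1 the 2 nontargeting arrays stood apart from each other, at 11.25 and 11.23 against 9.87 and 10.21, all of them below the 4 knockdown samples (11.37 to 11.64).

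**Figure D5:**
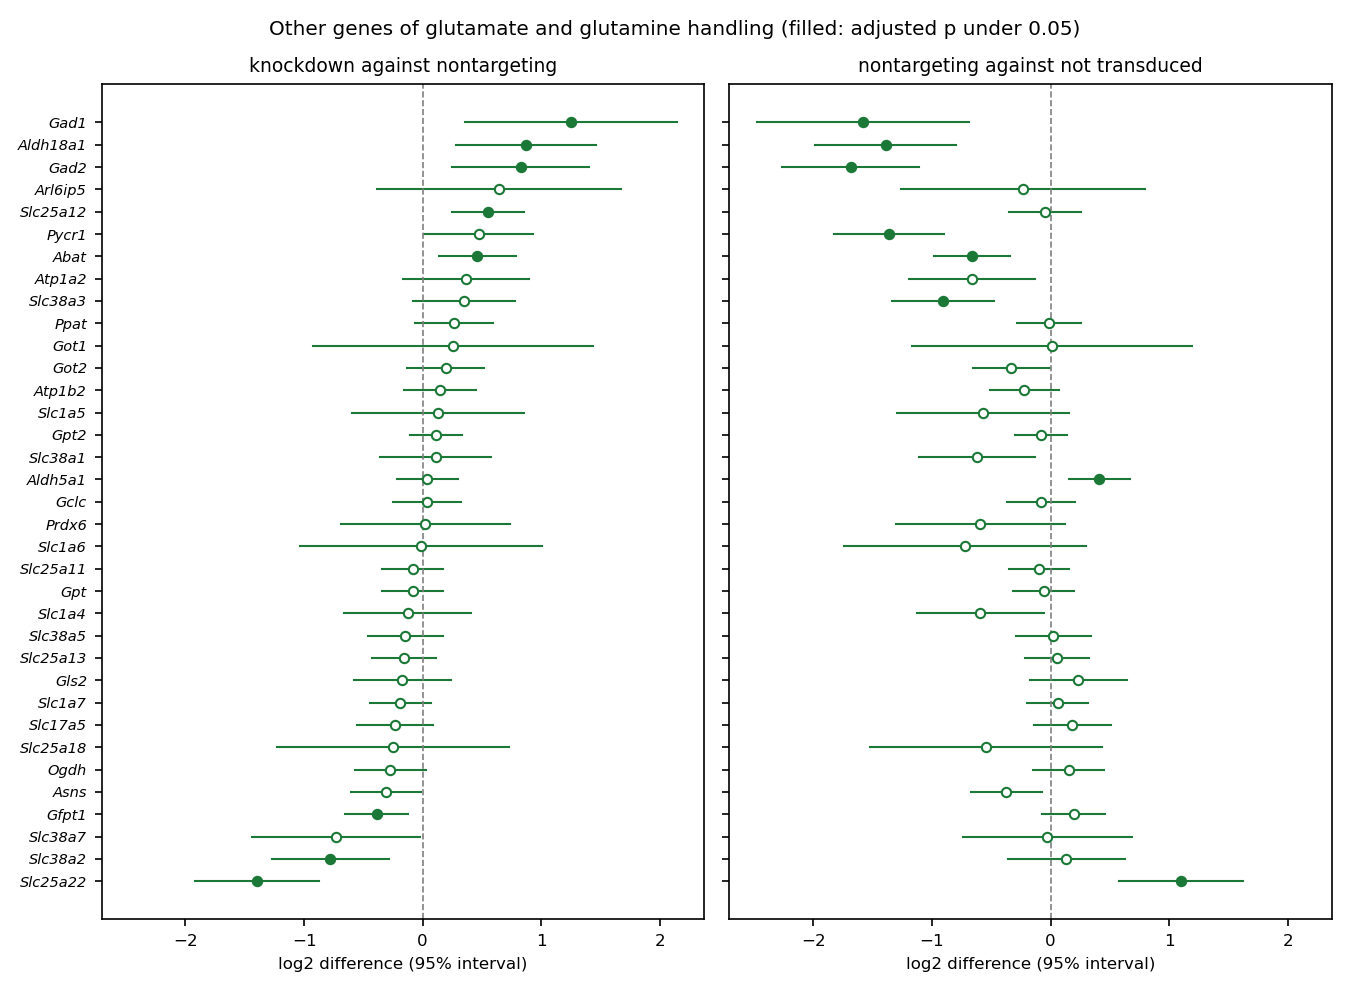
Log2 difference with its 95% interval for the 35 other tested genes of glutamate and glutamine handling, in knockdown against nontargeting and in nontargeting against not transduced, ordered by the first; filled symbols passed the limma test at an adjusted p under 0.05. Gad1, Gad2, Abat and Aldh18a1 are filled to the right in the first panel and to the left in the second, and Slc25a22 the other way round.

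In nontargeting against not transduced, where 22.5% of all genes passed, 2 of the 35 rose, Slc25a22 (1.10) and the GABA shunt enzyme Aldh5a1 (0.41), and 6 fell: Gad2 (-1.69), Gad1 (-1.58), Aldh18a1 (-1.39), the proline enzyme Pycr1 (-1.36), the glutamine transporter Slc38a3 (-0.90) and Abat (-0.66). Slc38a3 exports glutamine from astrocytes and so follows Glul in the cycle. None of the 35 passed in overexpression against not transduced. Gad1 and Gad2 also mark interneurons, and 8 of 12 tested interneuron markers, these 2 included, fell in nontargeting against not transduced, at a list median of -1.34. Over all genes 10.9% were lower there. In knockdown against nontargeting 7 of the 12 rose and 1 fell, at a list median of 0.61. Over all genes 10.5% were higher and 11% lower there. The summed level of the 12 was 15.46 to 15.81 (log2) without virus, 14.41 to 14.90 with the nontargeting virus, 14.53 to 14.86 in knockdown and 15.38 to 15.77 with overexpression, and its part in these results was not tested.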

How the data were processed

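Per the labels, cultures were labelled with Cy3 (replicates 1 and 3) or Cy5 (replicates 2 and 4). A label field on adult brain of hormone-treated animals contradicts the culture protocol and design, and was not used. The scanner files hold, per the file headers, unnormalized spot intensity and local background from Agilent Feature Extraction (version 10.7.3.1, per the submitters' processing notes). The authors' deposited series matrix holds log2 values that equal the median signal minus background of the scanner files, centred on each column's median (slope and r of 1).

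Intensities were corrected by normexp (offset 50), loess and Aquantile in limma 3.58.1 (R 4.3.3, statmod 1.5.0). Outlier spots were set to missing, spots of a probe averaged, and probes kept that were well above background in at least 4 samples, with at least 12 values and 2 per group. The probe with the highest mean stood for its gene. All 16 samples were fitted on group and dye with the array as a random block (correlation 0.569), with two-sided p values adjusted by Benjamini-Hochberg over 22925 genes (threshold 0.05). The spread of the samples sets these p values.

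Same-numbered knockdown and nontargeting samples correlated over genes at 0.134, 0.151, 0.257 and 0.192 after group means were removed, all above 0.1, so the replicate number was also fitted as a block. Same-numbered samples share the dye, and with the dye removed these values were 0.136, 0.07, 0.146 and 0.061.

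The 8 members were always named, and other glutamate genes where they passed the test in a comparison within a slide; Aldh5a1, Pycr1 and Slc38a3, which passed only across slides, were named after their values were seen. A pair of genes from the lists is left out of them and not reported here. The members and gene lists were chosen with earlier results of these data known. Alternatives were other background corrections, signals, scalings, filters, blocks, probe choices and fits with samples or arrays left out.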

Additional observations from a re-analysis of the deposited data

Results flagged for a closer look

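In 3 of 53 groups of 4 values tested over the members' probes, 1 sample stood far from the other 3 (Dixon's test at the 95% level). Chance alone flags about 5% of such groups. Nontargeting replicate 4 had a log2 intensity of 9.95 on the Glul probe A_44_P381069, below the other nontargeting samples at 11.04 to 11.17; on the second probe it was also the lowest, at 8.92. On the Glud1 probe A_44_P259908, not transduced replicate 4 was low at 12.73, and nontargeting replicate 3 was high at 13.19.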

How the results depend on the processing

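Of 1757 values of a member in a comparison under an alternative, 1694 stayed on their side of the threshold, 42 lost the call, 21 gained it and 0 reversed. The replicate block gained the 2 calls named in the report and changed no other member call. The series matrix values put the median of all genes at up to 0.36 (knockdown against overexpression, where it was 0.01) and moved the share of called genes that were higher from 48.7% to 78.3% in knockdown against nontargeting, 48.2% to 82.1% in knockdown against not transduced, 55.2% to 92.7% in knockdown against overexpression, 45.9% to 30.6% in overexpression against nontargeting and 56.3% to 89.7% in the difference of the same-slide comparisons. Scaling to the 75th percentile put that median at up to 0.27 and the share at 87.9%, both in knockdown against not transduced.

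Under that scaling 2289 genes and 1 member passed in knockdown against nontargeting, 1760 genes in nontargeting against not transduced, 4942 and 1 in knockdown against not transduced, 1598 in overexpression against nontargeting, 291 and 0 in knockdown against overexpression, 373 and 1 in the difference, and 0 genes in overexpression against not transduced. Without the array block, which treats samples of an array as independent, the same order gave 8281, 9122, 5945 (4 members), 9148, 6172 (6 members), 5296 and 32. With 1 value per array, 1026 genes and 1 member passed in knockdown against not transduced, 1054 and 1 in knockdown against overexpression, 1050 genes in the difference and 0 genes in overexpression against not transduced. Fitting 2 groups alone gave 3249 genes in nontargeting against not transduced, 4112 in knockdown against overexpression and 0 in overexpression against not transduced, and no value for the difference. In overexpression against not transduced, processed signals gave 2 genes and the series matrix 4, and in knockdown against overexpression the matrix gave 5609. The highest-variance probes left 1 member in the difference. Apart from the array block, the cause of these changes was not tested.

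With samples or arrays left out, genes past the test ranged from 2879 to 5681 in knockdown against nontargeting (members 2 to 5), 0 to 40 in overexpression against not transduced (0 to 0), 3703 to 5724 in nontargeting against not transduced (3 to 3), 1026 to 3562 in knockdown against not transduced (1 to 3), 3037 to 5883 in overexpression against nontargeting (3 to 3), 1048 to 3766 in knockdown against overexpression (0 to 5) and 1466 to 3498 in the difference (1 to 2). Signal over background limits Slc17a8 and the second Slc1a2 probe.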
